A study of Mus musculus with 72 samples.

Results

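The REV-ERB receptors Nr1d1 and Nr1d2 and the retinoid-related orphan receptor Rora are the 3 genes described here, out of 22180 genes that had a probe set annotated with their symbol alone. They were taken by name, each as its highest-mean probe set of that kind, and each had 1 such probe set (17268884 for Nr1d1, 17303625 for Nr1d2 and 17518911 for Rora). All 3 passed the filter on low signals that left 13308 genes for testing. The related receptor Rorb had mean levels of 5.81 to 5.97 across the 4 sets of arrays, under the filter's bound of 6.00.

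The livers came from mice kept in 12 h of light and 12 h of darkness and were collected every 4 h over a day. Zeitgeber time (ZT) counts hours from lights on. A SIRT6 cohort, labelled with the background 129 mixed, held WT mice and mice with a liver-specific knockout (KO) of SIRT6. A SIRT1 cohort, labelled C57BL/6, held WT mice and mice with a liver-specific knockout of SIRT1. Each of the 4 sets of cohort and genotype had 3 arrays at ZT0 and at every 4 h up to ZT20, which makes 24 groups and 72 arrays. The sources used here do not give the age or sex of the mice, what drove the deletion or which alleles the WT mice carried. The arrays of a group are numbered replicates, with no statement on whether each is 1 animal, so p-values measure the spread between these arrays, which may be partly technical. Levels below are log2(intensity + 16) of the deposited array signals, each ± is an SD over 3 arrays unless named an SE, and levels are compared only within a cohort, because cohort, strain and any separate normalization cannot be told apart.

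Array medians lay between 43.9 and 53.8 intensity units, and no array had a mean correlation with its own group under 0.912. All 10 hepatocyte markers were measured, with a summed intensity of 54145 to 69098 on every array. The check of the deleted genes did not bear out the labels: the Sirt6 probe set read 7.32 ± 0.18 (SD, n = 18) in the WT and 7.89 ± 0.10 (n = 18) in the KO-labelled arrays of the SIRT6 cohort, higher in the latter (limma adjusted p = 8.9e-09). The Sirt1 probe set read 8.74 ± 0.18 and 8.74 ± 0.11 in the SIRT1 cohort (limma adjusted p = 0.96). Where these probe sets lie relative to the deleted exons was not analysed here, so every KO below is a library labelled KO.

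REV-ERB proteins are heme-binding nuclear receptors that lack an activation domain. They sit on ROR elements and recruit the NCoR and HDAC3 corepressor complex, while RORs bind the same elements and activate, so that both act on Arntl (encoding BMAL1), Cry1 and Npas2. The BMAL1 and CLOCK proteins in turn drive Nr1d1 and Nr1d2 through E-boxes, and the PER and CRY proteins oppose that drive. In liver the REV-ERBs are also known for the daily control of lipid, bile acid and glucose genes, and SIRT6 and SIRT1 are NAD-dependent deacetylases that act on chromatin.

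The stretch just before the start of transcription is where such elements are usually sought, so the promoters of the 2 rhythmic members are shown to set their letters beside their time courses. The sequences are the 250 bases before the annotated start from RefSeq (build GRCm38.p6), and capitals mark a motif match. Nr1d1 lies on the minus strand of chromosome 11 (chr11:98775378-98775627), and Nr1d2 on the minus strand of chromosome 14 (chr14:18239107-18239356).
Nr1d1: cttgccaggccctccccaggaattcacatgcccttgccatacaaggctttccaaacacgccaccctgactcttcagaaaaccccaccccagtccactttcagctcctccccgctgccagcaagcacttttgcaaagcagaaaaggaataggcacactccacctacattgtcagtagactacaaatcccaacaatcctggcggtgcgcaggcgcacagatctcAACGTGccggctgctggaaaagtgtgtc
Nr1d2: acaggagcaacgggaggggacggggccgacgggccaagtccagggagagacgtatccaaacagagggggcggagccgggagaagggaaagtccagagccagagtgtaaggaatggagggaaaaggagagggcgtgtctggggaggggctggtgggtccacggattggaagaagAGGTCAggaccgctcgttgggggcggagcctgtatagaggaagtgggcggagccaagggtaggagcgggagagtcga
Motifs were searched on both strands in the 250-base windows of all 32851 annotated starts. The Nr1d1 window held 1 match to the E-box variant CACGTT, read as AACGTG on the strand shown and lying 28 bases before the start. That motif was present in 3.85% of all windows. The Nr1d2 window held 1 match to AGGTCA, the core of a ROR element, lying 77 bases before the start, and 14.02% of all windows held it. The E-box CACGTG (6.02% of windows), the D-box TTATGNAA (3.07%) and the RevDR2 element, which pairs AGGTCA cores (0.01%), had no match in the windows of Nr1d1, Nr1d2 or Rora. These letters are descriptions of short windows, and the known regulatory sites of the genes can lie outside them. The Rora window lies inside a longer annotated span of that gene, and not before its first annotated start.

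Nr1d1 had the widest daily swing of the 3 genes. Its level was highest at ZT4 in all 4 sets and lowest at ZT20 in 3 of them, the SIRT6 cohort WT being lowest at ZT16. The distance between the highest and lowest group means was 4.13 in the SIRT6 cohort WT, 4.35 in the SIRT6 KO, 4.83 in the SIRT1 cohort WT and 4.24 in the SIRT1 KO, or 17.5-fold to 28.5-fold on the intensity + 16 scale.

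**Figure D1:**
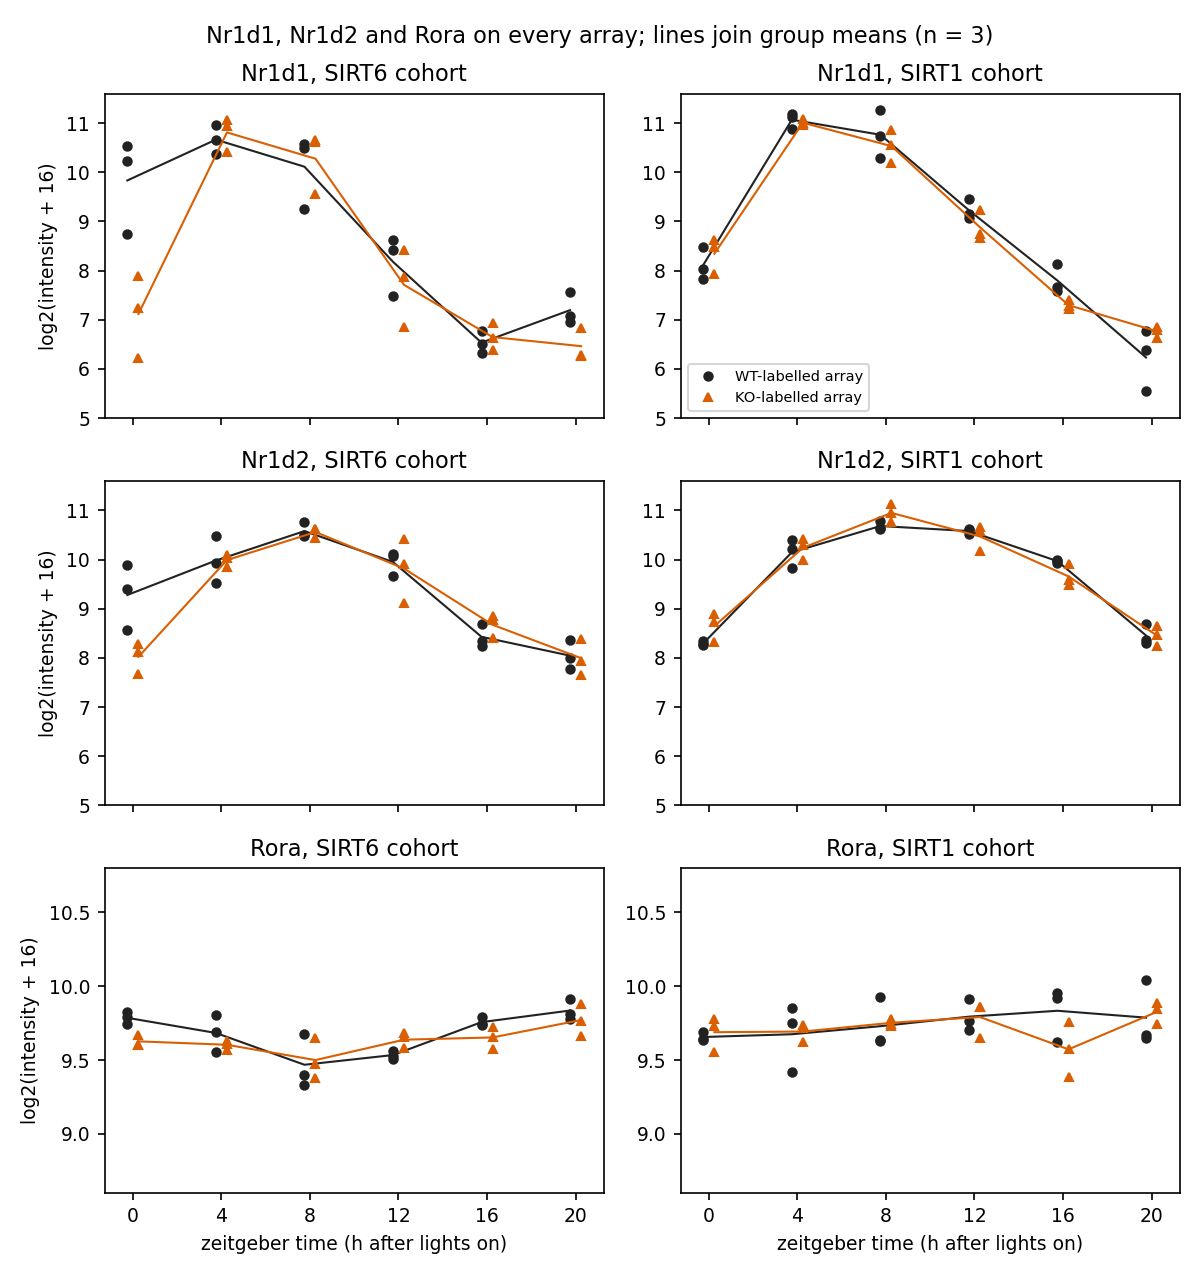
Levels of Nr1d1, Nr1d2 and Rora as log2(intensity + 16) on the vertical axis against zeitgeber time in hours on the horizontal axis, for every array of the SIRT6 cohort (left) and the SIRT1 cohort (right). Black circles are WT arrays, orange triangles KO-labelled arrays and lines join means of 3 arrays; at ZT0 of the SIRT6 cohort the Nr1d1 arrays lie at 8.74 to 10.53 in WT and at 6.22 to 7.89 in KO, while Rora stays between 9.33 and 10.04 on all arrays.

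In the SIRT6 cohort WT, the Nr1d1 arrays read 10.23, 8.74 and 10.53 at ZT0, 10.36, 10.97 and 10.66 at ZT4, and 10.58, 10.50 and 9.26 at ZT8. They read 7.48, 8.63 and 8.42 at ZT12, 6.32, 6.52 and 6.76 at ZT16, and 6.95, 7.07 and 7.56 at ZT20. Levels at ZT0, ZT4 and ZT8 overlapped, and all arrays from ZT16 and ZT20 lay below every array of those 3 times.

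In the SIRT6 KO, the Nr1d1 arrays read 6.22, 7.89 and 7.24 at ZT0, 10.42, 11.07 and 10.94 at ZT4, and 10.62, 9.56 and 10.65 at ZT8. They read 6.85, 8.41 and 7.86 at ZT12, 6.39, 6.93 and 6.62 at ZT16, and 6.83, 6.27 and 6.29 at ZT20. Here ZT0 overlapped ZT12, ZT16 and ZT20 and lay entirely below ZT4 and ZT8.

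In the SIRT1 cohort WT, the Nr1d1 arrays read 8.48, 7.84 and 8.03 at ZT0, 11.12, 11.19 and 10.88 at ZT4, 10.29, 10.74 and 11.25 at ZT8, and 9.16, 9.45 and 9.07 at ZT12, then 7.59, 7.67 and 8.13 at ZT16 and 6.78, 6.38 and 5.54 at ZT20. In the SIRT1 KO they read 8.62, 7.93 and 8.48 at ZT0, 10.99, 10.95 and 11.07 at ZT4, 10.19, 10.85 and 10.55 at ZT8, 9.23, 8.66 and 8.75 at ZT12, 7.21, 7.28 and 7.40 at ZT16, and 6.80, 6.64 and 6.86 at ZT20. The WT and KO time courses of this cohort followed the same order of times, ZT4, ZT8, ZT12, ZT0, ZT16 and ZT20 from high to low.

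Nr1d2, the close relative of Nr1d1, peaked later and swung less. Its group mean was highest at ZT8 in all 4 sets, and its lowest mean fell at ZT20 in 3 sets and at ZT0 in the SIRT1 cohort WT. The distance from lowest to highest mean was 2.53, 2.56, 2.38 and 2.50 in the SIRT6 cohort WT and KO and the SIRT1 cohort WT and KO, a fold of 5.22 to 5.92.

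In the SIRT6 cohort WT, the Nr1d2 arrays read 9.39, 8.56 and 9.88 at ZT0, 9.53, 10.47 and 9.94 at ZT4, 10.50, 10.75 and 10.48 at ZT8, 9.66, 10.11 and 10.08 at ZT12, 8.35, 8.25 and 8.69 at ZT16, and 8.37, 7.99 and 7.78 at ZT20. In the SIRT6 KO they read 7.67, 8.27 and 8.12 at ZT0, 9.84, 10.10 and 10.03 at ZT4, 10.61, 10.63 and 10.44 at ZT8, 9.12, 10.41 and 9.92 at ZT12, 8.78, 8.85 and 8.40 at ZT16, and 8.39, 7.94 and 7.65 at ZT20. As for Nr1d1, the WT arrays at ZT0 overlapped those at ZT4, but here they also overlapped those at ZT12 and ZT16. The KO arrays at ZT0 overlapped only those at ZT20.

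In the SIRT1 cohort WT, the Nr1d2 arrays read 8.26, 8.34 and 8.29 at ZT0, 10.40, 10.22 and 9.83 at ZT4, 10.62, 10.64 and 10.79 at ZT8, 10.61, 10.51 and 10.61 at ZT12, 9.99, 9.98 and 9.93 at ZT16, and 8.37, 8.69 and 8.31 at ZT20. In the SIRT1 KO they read 8.89, 8.33 and 8.72 at ZT0, 10.00, 10.43 and 10.29 at ZT4, 10.94, 10.77 and 11.13 at ZT8, 10.17, 10.58 and 10.67 at ZT12, 9.91, 9.49 and 9.58 at ZT16, and 8.66, 8.47 and 8.23 at ZT20. In both sets of this cohort ZT0 overlapped ZT20 and lay below the other 4 times.

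Rora, the activating counterpart at the same elements, was nearly flat. Its group means spanned 0.37 in the SIRT6 cohort WT, from 9.47 ± 0.18 at ZT8 to 9.84 ± 0.07 at ZT20, and 0.27, 0.18 and 0.25 in the SIRT6 KO, the SIRT1 cohort WT and the SIRT1 KO. Single arrays ran from 9.33 to 9.91 and from 9.38 to 9.88 in the SIRT6 cohort WT and KO, and from 9.42 to 10.04 and from 9.38 to 9.89 in the SIRT1 cohort WT and KO. The median SD within a group was 0.06 in both SIRT6 sets and 0.18 and 0.10 in the SIRT1 sets, so most of the neighbouring times did not differ beyond their spread.

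The time courses were fitted with a 24 h cosine in each set and tested by limma's moderated F over all genes, with Benjamini-Hochberg adjustment and a threshold of 0.05. Nr1d1 and Nr1d2 were rhythmic in all 4 sets, as were 3.19% of the genes tested. The highest of their 8 adjusted p-values was 7.8e-05, for Nr1d1 in the SIRT6 KO (limma). The fitted amplitude of Nr1d1, peak minus trough in log2 units, was 4.34 ± 0.35 (SE) in the SIRT6 cohort WT, 4.61 ± 0.50 in the SIRT6 KO, 4.65 ± 0.33 in the SIRT1 cohort WT and 4.33 ± 0.21 in the SIRT1 KO. Ranked among the 13308 genes tested, these amplitudes were number 1, 1, 2 and 4, where the median gene had 0.20 to 0.23. The amplitude of Nr1d2 was 2.48 ± 0.25, 2.76 ± 0.24, 2.60 ± 0.19 and 2.57 ± 0.16 in the same order of sets, at ranks 25, 14, 16 and 18.

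Rora passed this test in the SIRT6 cohort WT, where 10.1% of genes did (amplitude 0.37 ± 0.07, SE, fitted peak at ZT 21.1, limma adjusted p = 0.0061). It did not pass in the SIRT6 KO (0.20 ± 0.06, adjusted p = 0.12), where 10.6% of genes did, or in the SIRT1 cohort WT (0.18 ± 0.10, adjusted p = 0.40) and KO (0.03 ± 0.09, adjusted p = 0.97), where 18.3% and 23.2% did, by the same limma fits. The call in the SIRT6 cohort WT was lost with an F test over 6 free group means in place of the cosine (limma adjusted p = 0.074), and the difference in its rhythm between KO and WT did not pass (limma adjusted p = 0.64).

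**Figure D2:**
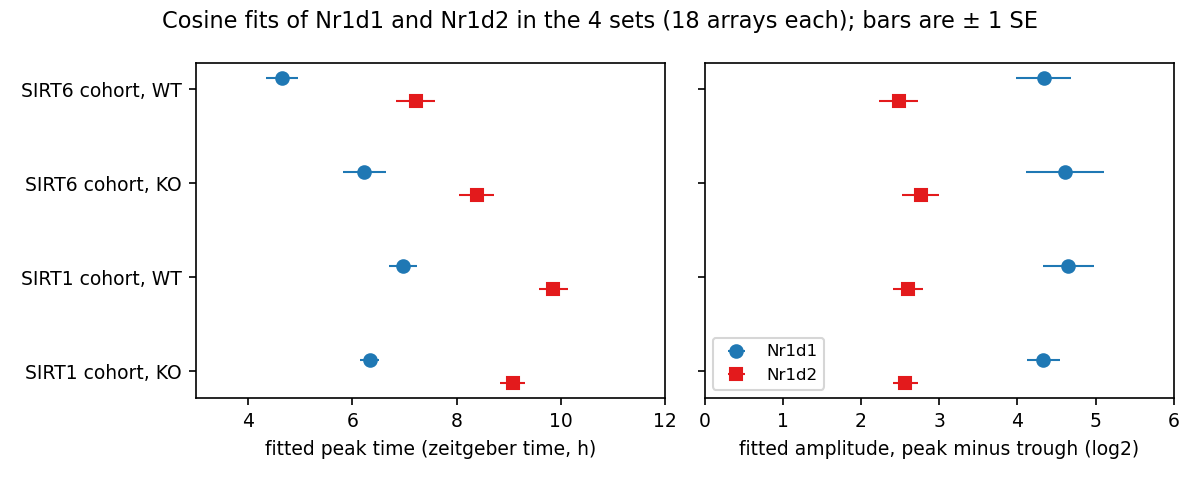
Fitted peak time in hours of zeitgeber time (left) and fitted amplitude as peak minus trough in log2 units (right) of Nr1d1 (blue circles) and Nr1d2 (red squares) in the 4 sets, from 24 h cosine fits to 18 arrays each, with bars of ± 1 SE. Nr1d2 peaks 2.15 to 2.89 h after Nr1d1 in each set, and the SIRT6 cohort WT has the earliest peak of both genes.

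The fitted peak of Nr1d1 fell at ZT 4.65 ± 0.31 (SE) in the SIRT6 cohort WT, at 6.23 ± 0.41 in the SIRT6 KO, at 6.96 ± 0.27 in the SIRT1 cohort WT and at 6.33 ± 0.18 in the SIRT1 KO. Nr1d2 followed at ZT 7.21 ± 0.38, 8.38 ± 0.33, 9.85 ± 0.28 and 9.08 ± 0.24 in the same order of sets. Nr1d2 thus peaked 2.57, 2.15, 2.89 and 2.75 h after Nr1d1.

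Steps between neighbouring times were tested in each set with adjustment over all genes and 6 steps. In the SIRT6 cohort WT, Nr1d1 passed at 1 of 6 steps, its rise of 2.64 ± 0.44 (SE) from ZT20 to ZT0 (limma adjusted p = 0.049), where 0.286% of genes passed at some step. In the SIRT6 KO (0.443% of genes) that step was 0.65 ± 0.43 and did not pass, and the rise came at the next one, by 3.69 ± 0.43 from ZT0 to ZT4 (limma adjusted p = 0.0024). These Nr1d1 steps use the ZT0 arrays, whose difference between KO and WT was known when the genes were chosen. Their p-values thus partly describe a known value. Nr1d2 rose in the SIRT6 KO by 1.97 ± 0.26 from ZT0 to ZT4 (limma adjusted p = 0.0082) and passed at no step in the SIRT6 cohort WT with equal array weights. With estimated array weights Nr1d2 passed there at the rise into ZT0 (1.42, limma adjusted p = 0.0027) and the fall into ZT16 (-1.72, limma adjusted p = 0.00020). Those weights called 7048 of 13308 genes at some step of that set, against 38 in the main fit. In the SIRT6 KO, Nr1d1 also fell by 2.57 ± 0.43 from ZT8 to ZT12 (limma adjusted p = 0.037). The WT call at ZT20 to ZT0 was lost under 7 other settings of the fit and in 15 of the 18 fits that left out 1 array, with values of 2.29 to 3.18, and the KO call at ZT8 to ZT12 was lost in 14 of 18. The KO rise into ZT4 kept its call for Nr1d1 in all 18, and for Nr1d2 in all but the fit without replicate 3 of ZT4 (1.95, limma adjusted p = 0.053).

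In the SIRT1 cohort WT (1.9% of genes passed at some step) Nr1d1 passed at 5 of 6 steps. It rose by 1.88 ± 0.27 into ZT0 and by 2.95 ± 0.27 into ZT4, then fell by 1.53 ± 0.27, 1.43 ± 0.27 and 1.56 ± 0.27 into ZT12, ZT16 and ZT20. In the SIRT1 KO (6% of genes) Nr1d1 passed at 4 steps, with rises of 1.58 ± 0.17 into ZT0 and 2.66 ± 0.17 into ZT4, and Nr1d2 passed at 4 steps. In the WT of this cohort Nr1d2 passed at 3 steps, but the numbers depended on the settings. The step of Nr1d2 into ZT8 lost its call in the KO without a trend (limma adjusted p = 0.067) and gained it in the WT with quantile normalization (0.041), and the WT step into ZT16 lost it with centred medians (0.064). The change of Nr1d2 into ZT0 was -0.16 ± 0.12 and 0.19 ± 0.16 in the WT and KO of this cohort, and it rose from ZT0 to ZT4 by 1.85 ± 0.12 and 1.59 ± 0.16 (limma adjusted p at most 4.4e-05). Rora passed at 0 of its 24 steps.

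At ZT0 of the SIRT6 cohort, Nr1d1 was 7.12 ± 0.84 in the KO and 9.83 ± 0.96 in the WT (n = 3 each), a difference of -2.72 ± 0.45 (SE), or 6.57 times lower with an interval of 3.45 to 12.5. All 3 KO arrays lay below all 3 WT arrays, as they did for 10.6% of all genes at that time. This comparison was named when the genes were chosen, so its adjusted p over all genes and 6 times (limma, 0.0062, past the threshold for 0.15% of genes at ZT0) describes a value already known. Without WT replicate 3 or KO replicate 1 of ZT0 the call ended, the difference being -2.37 and -2.27 with limma adjusted p of 0.053 and 0.051.

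Measured against the mean of its own set over the day, Nr1d1 stood at +1.08 in the SIRT6 cohort WT at ZT0 and at -1.05 in the SIRT6 KO, and at -0.75 and -0.46 in the SIRT1 cohort WT and KO. Nr1d2 stood at -0.10 in the SIRT6 cohort WT and at -1.15, -1.39 and -1.09 in the other 3 sets. For both genes the SIRT6 cohort WT was the set with the highest ZT0 level relative to its own day, a description without a test.

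Nr1d2 at ZT0 of the SIRT6 cohort was 9.28 ± 0.67 in WT and 8.02 ± 0.32 in KO, a difference of -1.26 ± 0.29 (SE, 95% interval -1.85 to -0.67) that missed the threshold (limma adjusted p = 0.081). Its groups did not overlap, which held for 14.7% of genes in either direction. With array weights the Nr1d2 difference passed, at -1.22 (limma adjusted p = 0.0030), as it did in a single fit of all 72 arrays (limma adjusted p = 0.0025), without WT replicate 2 of ZT0 (-1.62, limma adjusted p = 0.013) and without KO replicate 1 of ZT12 (-1.26, limma adjusted p = 0.043). At 1 or more times the weights called 2541 genes and the single fit 153, against 63 in the main fit. Rora at ZT0 was 9.79 ± 0.04 in WT and 9.63 ± 0.04 in KO, a difference of -0.16 ± 0.08 (SE, 95% interval -0.32 to 0.00, limma adjusted p = 0.64), and its groups did not overlap there, at ZT12 or at ZT16 (8.47% and 7.39% of genes at the latter times).

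**Figure D3:**
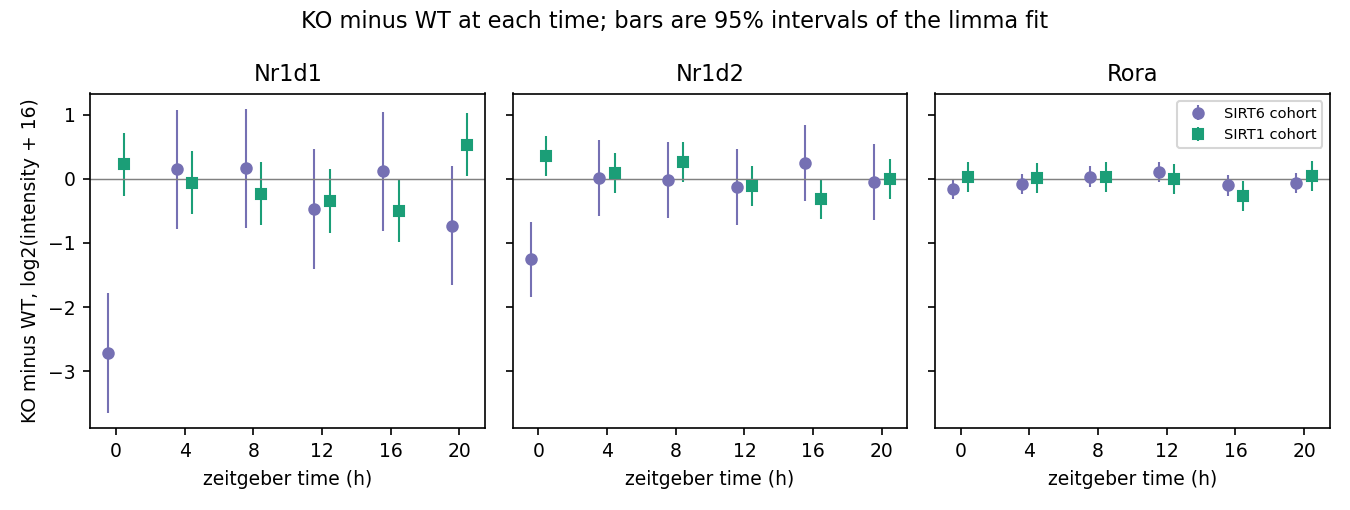
KO minus WT in log2(intensity + 16) at each zeitgeber time in hours for Nr1d1, Nr1d2 and Rora, with the SIRT6 cohort as purple circles, the SIRT1 cohort as green squares and 95% intervals of the limma fit as bars, which are not adjusted for the number of genes. Nr1d1 (-2.72) and Nr1d2 (-1.26) at ZT0 of the SIRT6 cohort lie away from the other points, which run from -0.73 to 0.53.

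At the other 5 times of the SIRT6 cohort, 0 of the 3 genes passed, where 0.18%, 0.0827%, 0.0902%, 0.0977% and 0.218% of genes did from ZT4 to ZT20 and 0.473% at 1 or more of the 6 times. The KO minus WT differences of Nr1d1 ran from -0.73 at ZT20 to 0.16 at ZT8, with 95% intervals reaching from -1.66 to 1.09 and the smallest limma adjusted p at 0.77. At ZT20 the groups of Nr1d1 did not overlap, 6.46 ± 0.32 in KO against 7.20 ± 0.33 in WT, as for 19% of genes. Those of Nr1d2 ran from -0.13 to 0.24 (intervals from -0.73 to 0.84) and those of Rora from -0.10 to 0.10 (intervals from -0.26 to 0.27). With the same limit for Nr1d1, whose ZT0 value was known, the difference at ZT0 was also set against the mean difference at the other 5 times: this was -2.56 ± 0.50 (SE) for Nr1d1 and -1.27 ± 0.32 for Nr1d2, with limma adjusted p of 0.13 and 0.80. For that contrast limma called 0 of 13308 genes, with 717 genes (5.39%) at an unadjusted p under 0.05. Nr1d1 passed it with array weights (-2.14, limma adjusted p = 0.037) and in a single fit of all arrays (limma adjusted p = 0.00097), as well as without WT replicate 2 of ZT0 (-3.10, limma adjusted p = 0.015). The weights called 11 genes for this contrast and the single fit 1.

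Averaged over 6 times, Nr1d1 was lower in the SIRT6 KO by 0.58 ± 0.18 (SE, 95% interval of the difference -0.96 to -0.20), which missed the threshold (limma adjusted p = 0.057) that 6.61% of genes passed. The ZT0 difference already known is part of this average, and the KO mean was lower at 3 of the 6 times. The Nr1d1 average passed at 3 other settings, among them array weights, where 2630 genes were called against 880 in the main fit. It also passed, at -0.67 to -0.61, without WT replicate 2 of ZT0, WT replicate 3 of ZT8, WT replicate 1 of ZT12, KO replicate 2 of ZT0, KO replicate 2 of ZT12 or KO replicate 1 of ZT20, with limma adjusted p of 0.016 to 0.050. The averages of Nr1d2, -0.20 (interval -0.44 to 0.04), and of Rora, -0.05 (interval -0.11 to 0.02), had limma adjusted p of 0.38 and 0.51.

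In the SIRT1 cohort none of the 3 genes passed a test of KO against WT in the main analysis. With array weights Nr1d1 passed at ZT20, where the KO was higher by 0.87 (limma adjusted p = 0.039) against 0.53 with equal weights. The weights called 363 genes at 1 or more times in this cohort, against 0 in the main fit. At ZT0 the KO minus WT difference of Nr1d1 was 0.23 ± 0.24 (SE, 95% interval -0.26 to 0.72) and that of Nr1d2 0.35 ± 0.15 (0.04 to 0.66), with limma adjusted p of 0.85 and 0.57. Over all times the differences ran from -0.50 at ZT16 to 0.53 at ZT20 for Nr1d1, from -0.31 to 0.35 for Nr1d2 and from -0.26 to 0.04 for Rora. The groups of Nr1d1 and of Nr1d2 did not overlap at ZT16, with the KO lower, as for 7.42% of genes in either direction. The per-time limma test called 0 of all genes in this cohort, with 708 to 1621 genes at an unadjusted p under 0.05 at each time, so the intervals say more than the calls. Averages over the day were -0.06 (interval -0.26 to 0.14) for Nr1d1, 0.05 (-0.08 to 0.17) for Nr1d2 and -0.03 (-0.12 to 0.07) for Rora, where limma called 2.27% of genes.

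The KO effects of the cohorts were compared directly, each KO against the WT of its own cohort. At ZT0 the SIRT6 effect was below the SIRT1 effect by -2.94 ± 0.53 (SE, 95% interval -4.0 to -1.89) for Nr1d1 (limma adjusted p = 0.0046) and by -1.61 ± 0.33 (-2.28 to -0.94) for Nr1d2 (limma adjusted p = 0.023), where 0.293% of genes passed. Most of the Nr1d1 value is the SIRT6 difference of -2.72 already known when the genes were chosen, so its p is a description of it. The Nr1d2 contrast uses the same ZT0 arrays, so it is no separate support for the Nr1d1 value. For Rora the effects of the cohorts differed by -0.19 ± 0.14 (limma adjusted p = 0.71). None of the 3 genes passed at the other 5 times, with 0.406 as the smallest limma adjusted p, where 0.0751%, 0.0601%, 0.0376%, 0.113% and 0.225% of genes did from ZT4 to ZT20. The Nr1d2 call ended without any of 5 arrays of ZT0, namely WT replicates 1 and 3 and KO replicate 1 of the SIRT6 cohort and KO replicates 1 and 3 of the SIRT1 cohort, with values of -1.97 to -1.31 over all 72 arrays left out in turn. Averaged over the day the cohorts' effects differed by -0.52 ± 0.22 (SE) for Nr1d1 (limma adjusted p = 0.15), where 5.76% of genes passed.

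The whole rhythm was then compared between KO and WT. The fitted peak of the KO was 1.59 h later for Nr1d1 and 1.17 h later for Nr1d2 in the SIRT6 KO, and 0.63 and 0.77 h earlier in the SIRT1 KO. None of these 4 differences passed (limma adjusted p 0.54, 0.64, 0.73 and 0.73). The limma test called 1 gene (0.00751%) for SIRT6 and 0 for SIRT1, with 1098 and 966 genes at an unadjusted p under 0.05.

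Between the WT sets the rhythms of Nr1d1 and Nr1d2 passed the test of a difference in the main analysis. The SIRT1 cohort WT peaked 2.32 h later than the SIRT6 cohort WT for Nr1d1 and 2.64 h later for Nr1d2 (limma adjusted p = 0.047 for both, where 0.0827% of genes passed). These calls were lost in 22 and 25 of the 36 fits that left out 1 array, among them each fit without an array of ZT0 other than replicate 2 of the SIRT6 cohort WT, and with a pseudocount of 1 or without a filter. The hours of the shift were not followed in those fits, and the size of the difference has no sign, so its direction there is not known. The ZT0 arrays of the SIRT6 cohort WT are part of the Nr1d1 difference already known. The p of Nr1d1 is thus partly a description of them. The test for Rora gave a limma adjusted p of 0.18.

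Other genes of the clock were followed at ZT0, where the SIRT6 cohort difference in Nr1d1 lay. Of 11 E-box genes tested, Nr1d1 and Nr1d2 included, 10 had the lower mean in the SIRT6 KO, and the median difference was -0.42 against -0.02 for all genes. Without Nr1d1, whose value was already known, and Nr1d2, 8 of 9 had the lower mean. These 9 genes were read on the same arrays as the known Nr1d1 difference, so they are no separate support for it. Only Nr1d1 passed. The other 9 ran from -0.69 for Dbp, a transcription factor of the D-box genes, to 0.30 for Bhlhe40, a repressor of E-boxes, with limma adjusted p of 0.68 or more. Per3, an inhibitor of BMAL1 and CLOCK, was at -0.53, Tef at -0.48, Ciart at -0.42 and Per1 at -0.41. In the SIRT1 cohort 9 of the 11 had the higher mean in the KO at ZT0 (median 0.26 against 0.02 for all genes) and 0 passed. Averaged over the day 1 of the 11 passed there, Hlf, higher by 0.21 ± 0.05 (SE, limma adjusted p = 0.028), where 2.27% of all genes passed.

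**Figure D4:**
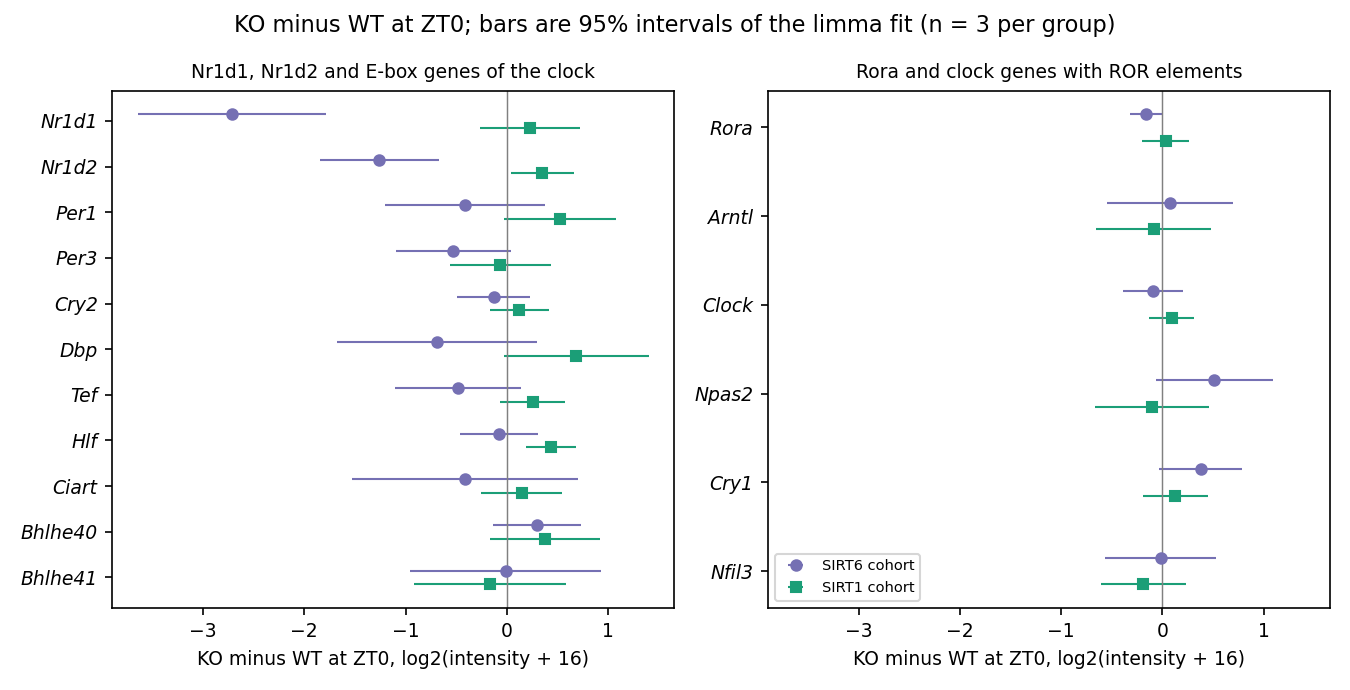
KO minus WT at ZT0 in log2(intensity + 16) for Nr1d1, Nr1d2 and the E-box genes of the clock (left) and for Rora and the clock genes with ROR elements (right), in the SIRT6 cohort (purple circles) and the SIRT1 cohort (green squares), with 95% intervals of the limma fit (n = 3 arrays per group). In the SIRT6 cohort 10 of 11 genes on the left lie below 0, and in the SIRT1 cohort 9 of 11 lie above it. Without Nr1d1 and Nr1d2, 8 of 9 lie below 0 in the SIRT6 cohort and 2 of 9 in the SIRT1 cohort, all read on the same arrays as Nr1d1.

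The clock genes with ROR elements, on which REV-ERBs and RORs act, did not pass in any comparison of KO with WT. At ZT0 of the SIRT6 cohort, Npas2 was at 0.51 and Cry1 at 0.38, Arntl at 0.08, Nfil3 at -0.02 and Clock at -0.09 (5 of 6 listed genes tested, limma adjusted p of 0.69 or more). The arrays with low Nr1d1 at ZT0 thus had Arntl at 9.26 ± 0.15 against 9.19 ± 0.23 in WT. All 5 were rhythmic in each set.

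The peaks of the 14 other clock genes on these lists were compared in the same way. Between the WT sets all 14 had the later fitted peak in the SIRT1 cohort, by 0.07 h for Bhlhe41 to 2.24 h for Per3. The median was 1.57 h. Limma called 0 of the 14, and 7 were at an unadjusted p under 0.05, as were 16.8% of all genes. Between KO and WT of the SIRT6 cohort the fitted peak was later in the KO for 11 of 14, with a median of 0.35 h and at most 1.36 h for Per1. Limma called 0, with 1 at an unadjusted p under 0.05, as were 8.25% of all genes. Between KO and WT of the SIRT1 cohort the fitted peak was earlier in the KO for 12 of 14. The median was -0.55 h, with a range from -1.51 h for Cry2 to 0.12 h for Npas2. Limma again called 0, with 1 at an unadjusted p under 0.05, as were 7.26% of all genes. The shifts of Nr1d1 between the WT sets (2.32 h) and in the SIRT6 cohort (1.59 h) lay above those ranges, and that in the SIRT1 cohort (-0.63 h) within its range. Both larger shifts use the ZT0 arrays of the SIRT6 cohort WT, part of the Nr1d1 difference already known, so they partly describe it. The shift of Nr1d2 lay above the range between the WT sets (2.64 h) and within it in both comparisons of KO with WT.

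Genes that work with the receptors were followed too. Of the NCoR and HDAC3 complex (4 of 6 listed genes tested), the kinases and ubiquitin ligases of REV-ERB turnover (6 of 6) and the coactivators of RORs (6 of 6), limma called 0 in the comparisons of KO with WT averaged over the day and at each time. Among 11 tested genes of heme synthesis and breakdown, heme being the ligand of the REV-ERBs, 1 passed, the ferrochelatase Fech, higher in the SIRT6 KO over the day by 0.14 ± 0.04 (SE, limma adjusted p = 0.038). A share of 1 in 11 is near the 6.61% of all genes that passed there. Of 11 tested metabolic genes named as REV-ERB or ROR targets, 9 had the lower mean in the SIRT6 KO at ZT0 (median -0.17), from Ppargc1a at -0.57, and Sult1e1 was at 2.30 with a 95% interval of -1.47 to 6.07. Limma called 0 of them. They were read on the same arrays as the known Nr1d1 difference, and the median of all genes at that time is given above.

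Markers of other liver cells were read beside the ZT0 difference, since fewer cells of a type and less RNA per cell cannot be told apart in whole liver. All 8 Kupffer cell markers had the higher mean in the SIRT6 KO at ZT0, from 0.35 for Clec4f to 1.59 for Marco (median 0.75), and 0 passed. Their summed intensity was 2823, 6835 and 3834 on the 3 WT arrays and 3816, 8231 and 12802 on the 3 KO arrays, in the order of replicates in which Nr1d1 read 10.23, 8.74 and 10.53 in WT and 6.22, 7.89 and 7.24 in KO. The sums of KO replicates 2 and 3 lay above every WT array of ZT0, and that of KO replicate 1, the array with the lowest Nr1d1, lay within the WT range of ZT0. Over all times of this cohort the sums ran from 1685 to 10257 in WT and from 2122 to 12802 in KO. The part of these cells in the Nr1d1 difference was not tested. Hepatocyte markers summed to 59777 to 63999 in WT and 56405 to 64054 in KO at ZT0. By gene, 8 of 10 hepatocyte markers had the lower mean in the SIRT6 KO there. They ran from -0.71 for Ass1 to 0.017 for Fgb, with limma adjusted p of 0.72 or more. Of the remaining markers at ZT0, 4 of 4 for lymphocytes, 6 of 6 for stellate cells, 4 of 6 for endothelium and 3 of 3 for bile ducts had the higher mean in the SIRT6 KO, and limma called 0.

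The genes whose 24 group means, centred within each cohort, were most like those of a member are given as a description, since all share the same arrays. For Nr1d1 they were Casp6 and Tns2 (r = 0.95 each) and Ift46, Inpp5k and Rcl1 (r = 0.93 each), and the gene most opposed was Cry1 (r = -0.97). For Nr1d2 they were Dbp (r = 0.96), Slc2a9 and Bcas3 (r = 0.95 each) and Mgrn1 and Pnpla2 (r = 0.94 each), with Ppard most opposed (r = -0.95). Nr1d1 and Nr1d2 had r = 0.78 with each other, which ranked Nr1d2 304th by likeness to Nr1d1 and Nr1d1 268th by likeness to Nr1d2. For Rora the highest were Glce (r = 0.75), Ahcy (0.74), Ctnnbip1 and Chchd10 (0.68 each) and Cox7a2 (0.66), with 2 predicted genes passed over, and Rora had r = -0.35 with Nr1d1 and -0.41 with Nr1d2.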

How the data were processed

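RNA of 72 mouse livers was hybridised to single-colour Affymetrix arrays. The values are intensities that the authors made with Affymetrix Expression Console 1.1.1 and PLIER 2.0, per the submitters' processing notes, and deposited on a linear scale. Of 41345 probe sets, 23521 had 1 gene symbol, 1814 several and 16010 none in the platform annotation, and the symbol's highest-mean probe set stood for the gene. The number of arrays limits the precision. Levels are log2(intensity + 16). The lowest 40% of 22180 genes by mean were left out (bound 6.00), which left 13308. Group means were fitted within each cohort with limma 3.58.1 in R 4.3.3 (lmFit, eBayes with trend), and all 72 arrays were fitted together for comparisons between cohorts. Rhythms were 24 h cosine fits with an F test. Benjamini-Hochberg adjustment ran over all genes, and over all times or steps of a comparison, with a threshold of 0.05. Intervals are 95% and not adjusted. The code was tested on simulated data. The genes named are Nr1d1, Nr1d2 and Rora, the listed clock, cofactor, heme, target and marker genes, and the 5 genes most like each member. These members and lists were chosen with earlier results of these data known. Alternatives were quantile normalization, centring on array medians, pseudocounts of 1 and 64, no filter on low signals, a stricter one, the replicate number as a block, weights estimated for each array, eBayes without trend, a test of every probe set with 1 symbol, all 72 arrays in 1 fit, an F test over 6 means, adjustment over rhythmic genes and each array left out. Python 3.11.15, pandas 2.3.3 and matplotlib 3.10.9 were used for summaries and figures.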

Additional observations from a re-analysis of the deposited data

Results flagged for a closer look

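The KO effect on Nr1d1 at ZT0 differed between the cohorts, the SIRT6 effect lying below the SIRT1 effect by -2.94 in log2 units (limma adjusted p = 0.0046). Most of this contrast is the SIRT6 difference of -2.72, which was named when the genes were chosen, so its p describes a value already known. The KO effect on Nr1d2 at ZT0 differed in the same direction, by -1.61 (limma adjusted p = 0.023), a call that ended without any of 5 single arrays. The Nr1d2 contrast uses the same ZT0 arrays, so it is no separate support for the Nr1d1 value.

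The rhythms of the WT sets passed the test of their difference by a narrow margin. The fitted peak in the SIRT1 cohort WT came 2.32 h later than in the SIRT6 cohort WT for Nr1d1 and 2.64 h later for Nr1d2 (limma adjusted p = 0.047 for both). These calls were lost in 22 and 25 of 36 fits that left out 1 array, and with a pseudocount of 1 or no filter. Cohort, strain label and any separate processing of the cohorts cannot be told apart in this difference. For Nr1d1 the test also uses the ZT0 arrays of the SIRT6 cohort WT, part of a value already known when the genes were chosen.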

How the results depend on the processing

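The Nr1d1 difference at ZT0 of the SIRT6 cohort was already known when the genes were chosen. It kept its direction and its call under the 11 other settings of the fit (-2.88 to -2.34). The ZT0 difference between the cohorts did so under the 10 settings run for it, for Nr1d1 (-3.14 to -2.54) and Nr1d2 (-1.80 to -1.44). These settings reuse the same arrays, so they are no separate support. The Nr1d1 call in the SIRT6 cohort and the Nr1d2 call between cohorts ended without certain single arrays of ZT0, as given above. Of 1307 member values recomputed, 1249 kept their direction and side of the threshold, and 154 of 196 counts of called genes stayed within 1.5 times the main count. Amplitudes and sizes of rhythm differences have no sign, so for them only the side of the threshold could change. The cause of the changes below was not tested. Intensities carry no read depth, and values near background have compressed differences under the pseudocount.

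The size of a difference in rhythm is that of the difference between fitted cosines, peak minus trough in log2 units, and the main values between the WT sets are 2.70 for Nr1d1 and 1.73 for Nr1d2. These lost their calls with a pseudocount of 1 (2.89 and 1.77), without a filter (2.70 and 1.73) and, for Nr1d2, with quantile normalization (1.66) or no trend (1.73), with limma adjusted p of 0.053 to 0.071, while Rora passed with centred medians (0.51, adjusted p = 0.042). The count of 11 genes there became 199 with centred medians, 7 with a pseudocount of 1 or the F test over 6 times, 286 with array weights and 330 over rhythmic genes. The 1 gene called between SIRT6 KO and WT rhythms became 0 with quantile normalization, centred medians, a pseudocount of 1, no filter, the stricter filter and the F test, 6 with array weights and 13 over rhythmic genes. With the F test, rhythmic genes numbered 410, 480 and 1265 in the SIRT6 cohort WT, the SIRT6 KO and the SIRT1 cohort WT, and Rora lost its call at 0.37 (limma adjusted p = 0.074).

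The deviations of same-numbered arrays had a median correlation of 0.25 in the SIRT6 cohort, over 0.1 in 11 of 18 pairs, and of 0.027 in the SIRT1 cohort, over 0.1 in 6 of 18. Since not every pair passed 0.1, the numbers were not taken to pair the arrays. With the replicate block the differences between the WT sets lost their calls at 2.70 for Nr1d1 and 1.73 for Nr1d2 (limma adjusted p = 0.061), the SIRT6 rhythm count was 0, the step counts were 24 and 34 in the SIRT6 cohort WT and KO, and the SIRT1 count per time was 1. Calls were lost for the steps of Nr1d1 into ZT0 in the SIRT6 cohort WT (2.64, limma adjusted p = 0.108) and into ZT12 in the SIRT6 KO (-2.57, limma adjusted p = 0.055), and of Nr1d2 into ZT8 in the SIRT1 KO (0.71, limma adjusted p = 0.051).

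With array weights, whose estimation did not reach its tolerance in 3 fits, SIRT6 counts were 2630 averaged, 2541 per time, 11 for ZT0 against the other times, 2567 rhythmic in WT, and 7048 and 896 over steps in WT and KO. SIRT1 counts were 1043 averaged, 363 per time, and 953 and 2299 over steps, and 4290 genes differed between cohorts. The calls that members gained in these contrasts were Nr1d1 in the SIRT6 average (-0.64), in the average between cohorts (-0.50) and at ZT0 against the other times (-2.14), Nr1d2 at ZT0 (-1.22) and against the other times (-1.28), and Nr1d1 at ZT20 of the SIRT1 cohort (0.87). Members gained calls at 7 steps, of which 4 lay in the SIRT6 cohort WT: Nr1d2 into ZT0 (1.42) and into ZT16 (-1.72), and Nr1d1 into ZT12 (-1.92) and into ZT16 (-2.14). The others were Nr1d2 into ZT16 in the SIRT6 KO (-1.21), Nr1d2 into ZT8 in the SIRT1 cohort WT (0.41) and Nr1d1 into ZT20 in the SIRT1 KO (-0.54). In 1 fit of all arrays Nr1d1 passed at -0.58 in the SIRT6 average and -2.56 at ZT0 against the other times, and Nr1d2 at -1.26 at ZT0. That fit called 153 genes per time for SIRT6, 1 for SIRT1, and 1 in each cohort at ZT0 against the other times. With the stricter filter the SIRT6 average of Nr1d1 passed at -0.58. Centred medians gave 1501 genes in the SIRT1 average, 1 per time, 509 over SIRT1 KO steps and 2053 between cohorts. Step counts without a filter were 22 and 38 in the SIRT6 cohort WT and KO, and 24 in WT without a trend.

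Values near 0 changed sign, none of them past the threshold. With quantile normalization SIRT1 Rora was -0.019, -0.017 and -0.030 at ZT0, ZT4 and ZT8, SIRT1 Nr1d2 was 0.054 at ZT20 and Rora averaged 0.00090 between cohorts. With centred medians SIRT6 Nr1d2 was -0.041 at ZT4, Rora -0.034 at ZT8 and the SIRT6 KO step of Nr1d2 into ZT0 -0.023. There SIRT1 Rora averaged 0.036 and was 0.0025 at ZT12, Nr1d1 was 0.010 at ZT4 and Nr1d2 0.061 at ZT20. With array weights SIRT6 Nr1d1 was -0.38 and Nr1d2 0.062 at ZT8, and SIRT1 Rora averaged 0.0038, was 0.011 at ZT12 and -0.0011 for ZT0 against the other times, with SIRT1 Nr1d2 at -0.017 at ZT4 and 0.097 at ZT20.

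Leaving out 1 array at a time gave -3.26 to -2.27 for Nr1d1 and -1.62 to -0.96 for Nr1d2 at ZT0 of the SIRT6 cohort, -3.10 to -2.11 for Nr1d1 against the other times, -0.67 to -0.51 for its average, and -1.97 to -1.31 for Nr1d2 at ZT0 between cohorts. The average of Rora between cohorts was -0.041 to 0.0012. Between the WT sets the size was 2.43 to 2.90 for Nr1d1 and 1.53 to 1.89 for Nr1d2, with 7 to 61 genes. Counts were 0 to 3 for SIRT6 rhythm differences, 0 to 1 for ZT0 against the other times in either cohort, 0 to 8 per time and 150 to 436 averaged for SIRT1. Over steps they were 11 to 70 and 17 to 89 in the SIRT6 cohort WT and KO, and 156 to 313 and 401 to 1363 in the SIRT1 cohort WT and KO. Differences that changed sign in SIRT6 were those of Nr1d1 at ZT4 (-0.0046 to 0.34), ZT8 (-0.26 to 0.52) and ZT16 (-0.027 to 0.24). For Nr1d2 these were ZT4 (-0.21 to 0.26), ZT8 (-0.068 to 0.069), ZT12 (-0.43 to 0.21), ZT20 (-0.25 to 0.12) and the KO step into ZT0 (-0.14 to 0.22), and for Rora ZT8 (-0.044 to 0.13). In SIRT1 they were Nr1d1 at ZT4 (-0.15 to 0.0029) and ZT8 (-0.47 to 0.016), and Nr1d2 at ZT4 (-0.069 to 0.22), ZT12 (-0.21 to 0.043) and ZT20 (-0.11 to 0.11). Those of Rora were ZT0 (-0.012 to 0.10), ZT4 (-0.11 to 0.11), ZT8 (-0.027 to 0.12), ZT12 (-0.047 to 0.067) and ZT20 (-0.029 to 0.17).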

Other observations

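The spread of Nr1d1 and Nr1d2 between arrays of the same group moved together in 1 cohort. Each array was taken as its deviation from the mean of its own group of 3, and p-values came from 100000 permutations of arrays within groups. In the SIRT6 cohort the deviations of Nr1d1 and Nr1d2 had Pearson's r = 0.71 over 36 arrays (permutation p = 0.00029, Benjamini-Hochberg adjusted 0.0017 over 6 relations) and Spearman's rho = 0.65 (permutation p = 0.00075, adjusted 0.0045). Without the 2 arrays farthest in Nr1d1, WT replicate 2 and KO replicate 1 of ZT0, r was 0.63. In the SIRT1 cohort the same relation had r = 0.10 (permutation p = 0.64) and rho = 0.04 (permutation p = 0.85), and the difference between the cohorts was not tested. The 4 relations with Rora had r of -0.10 to 0.06, with adjusted permutation p of 0.86 for each. These relations were chosen after the data had been seen. How many other genes moved with Nr1d1 as closely was not counted, so the relation is not shown to be particular to these genes. Whether the arrays of a group differed in the hour of collection is not stated in the sources used here.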
